A study of Mus musculus with 12 samples.

Results

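The 4 tropomyosin genes of the mouse, Tpm1, Tpm2, Tpm3 and Tpm4, were examined on every probe whose gene symbol in the array annotation was 1 of these names. They held 15 of 45281 probe IDs. IDs whose values were the same on each of the 12 arrays were taken as 1 feature, so that these 15 IDs gave 8 of 30854 features, and 4 of 19013 gene symbols. Tpm1 had 3 IDs in 2 features, Tpm2 had 3 IDs in 1 feature, Tpm3 had 6 IDs in 3 features, and Tpm4 had 3 IDs in 2 features. Each feature is named by its gene and by the source sequence that the annotation lists for it, as in Tpm3 (AF317223). Which isoform of a gene a feature reads is not given in the sources used here.

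Total RNA from whole hearts of FVB/N females at 3 weeks of age was measured on Illumina MouseWG-6 v2.0 bead arrays, with 3 arrays per group. Transgenic mice of the mild line, MHC-CELFΔ-574, and of the severe line, MHC-CELFΔ-10, carried a transgene for a nuclear, dominant negative form of CELF, a family of RNA-binding proteins that control alternative splicing. The transgene was driven by the α-myosin heavy chain promoter, which is active in heart muscle cells. Both lines were kept as hemizygotes, and each came with 3 wild type littermates without the transgene (6 wild type hearts in all). Each line is 1 transgenic strain, so that effects of the dose of the transgene and of the strain cannot be told apart. The values below are background corrected, quantile normalized signals on the log2 scale, and raw values are the deposited bead intensities. The median raw intensity over all probe IDs was between 106 and 117 in the wild type arrays, 106 and 110 in the mild arrays, and 120 and 123 in the severe arrays. The 9 measured of 10 heart muscle markers were all above the array median of 6.28, and their summed signal was 152000 to 161000 in wild type, 151000 to 163000 in mild and 155000 to 160000 in severe line hearts. This sum gives most weight to the brightest markers, such as Nppa and Myl3 (wild type means 15.18 and 15.13). Of the 9, Ryr2 and Pln, which handle calcium, were lower in both lines. Their log2 fold changes were -1.11 and -1.09 in mild and -0.49 and -0.68 in severe line hearts.

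Tropomyosins are rod-like coiled-coil proteins that lie end to end along the actin filament. In striated muscle they work with the troponin complex: at rest they cover the sites on actin to which myosin binds, and calcium bound to troponin lets them move away. Each gene gives several isoforms through alternative starts, alternative internal exons and alternative ends, and muscle and non-muscle forms often come from the same gene. Tpm1 supplies the main striated form of the adult mouse heart, Tpm2 and Tpm3 supply striated forms of skeletal muscle (Tpm3 the form of slow fibers), and Tpm4 supplies cytoskeletal forms.

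Tpm2 was higher in both lines, 1.52-fold in mild line hearts and 2.36-fold in severe line hearts. Of the 3 features of Tpm3, 2 were higher in the severe line, by 4.84-fold and 3.02-fold, and neither passed the test in the mild line. No feature of Tpm1 or Tpm4 passed the test in either line. A feature passed the test when its adjusted p from limma was under 0.05 over all 30854 features. Of the 8 tropomyosin features, 1 passed it in the mild line, against 3.55% of all features, and 3 passed it in the severe line, all higher, against 3.3% of all features. The 8 features had a median log2 fold change of 0.02 in mild and 0.19 in severe line hearts, where the median of all features was 0. With the rule of the study added, which asks for a fold change of at least 2, none of the 8 features was called in the mild line (0.269% of all features), and the same 3 features were called in the severe line (0.136% of all features). Between the lines, 4 of 8 features passed the test (1.37% of all features) and 2 met the rule of the study (0.136% of all features), in each case higher in the severe line.

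**Figure D1:**
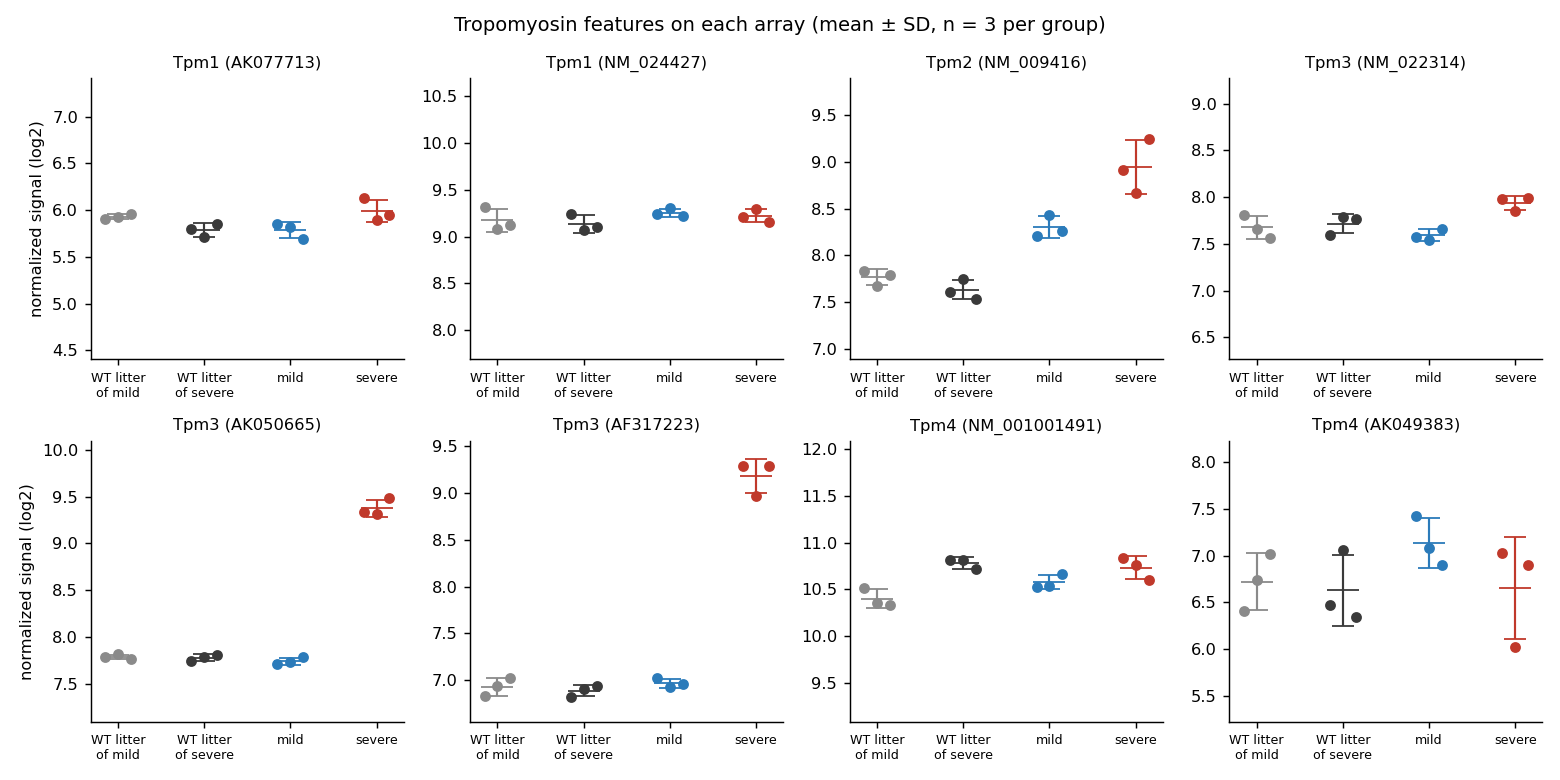
Normalized log2 signal (vertical axis) of the 8 tropomyosin features on each of the 12 arrays, by group. Points are arrays, and the bars are the mean and SD of 3 arrays. All panels span the same number of log2 units. Tpm2 (NM_009416) rises from wild type to mild to severe, Tpm3 (AK050665) and Tpm3 (AF317223) are high only on the 3 severe line arrays, and the other 5 panels show overlapping or nearly overlapping groups.

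In bulk RNA from whole hearts, a change in the share of a cell type and a change in RNA per cell cannot be told apart, and each value below is open to both.

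The promoters of Tpm2 and Tpm3 are shown because these are the tropomyosin genes with features that changed. RefSeq places Tpm2 on chromosome 4 with 3 curated transcripts and Tpm3 on chromosome 3 with 7 curated transcripts. The RefSeq table of promoters gives 1 start for Tpm2 and 2 for Tpm3, which lie 6870 bases apart. The 250 bases before each start are printed 5′ to 3′ on the strand of the gene, in the build GRCm38.p6, with matches to the motif CANNTG in capitals. The Tpm2 window is chr4:43523555-43523804 on the minus strand, and the Tpm3 windows are chr3:90072401-90072650 and chr3:90079271-90079520 on the plus strand.
Tpm2: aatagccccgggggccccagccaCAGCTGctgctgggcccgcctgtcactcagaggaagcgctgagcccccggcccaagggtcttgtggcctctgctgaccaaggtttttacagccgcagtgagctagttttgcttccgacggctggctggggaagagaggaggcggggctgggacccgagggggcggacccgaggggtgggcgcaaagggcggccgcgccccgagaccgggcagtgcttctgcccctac
Tpm3 first start: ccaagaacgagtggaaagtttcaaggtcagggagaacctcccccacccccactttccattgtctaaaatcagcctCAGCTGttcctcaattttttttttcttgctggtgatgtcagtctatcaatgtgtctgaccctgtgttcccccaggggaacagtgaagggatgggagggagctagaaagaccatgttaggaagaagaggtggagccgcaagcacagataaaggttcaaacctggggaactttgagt
Tpm3 downstream start: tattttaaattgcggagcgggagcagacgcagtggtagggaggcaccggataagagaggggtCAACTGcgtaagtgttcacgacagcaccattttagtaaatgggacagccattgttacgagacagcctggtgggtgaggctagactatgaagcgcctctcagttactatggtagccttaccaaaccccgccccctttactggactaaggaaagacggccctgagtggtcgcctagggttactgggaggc
The G and C content was 69.6% in the Tpm2 window, 48.8% at the first Tpm3 start and 53.6% at the downstream Tpm3 start. It was 65.2% in the window of Tpm1 on chromosome 9 and 78.8% in that of Tpm4 on chromosome 8. Motifs of factors known from muscle genes were searched on both strands. The E-box CANNTG, the motif of MyoD and its relatives, occurred once in each printed window, 227 bases before the Tpm2 start and 175 and 188 bases before the Tpm3 starts. It also occurred once in the Tpm1 window and not in the Tpm4 window, and 66.2% of 32851 promoter windows of the same length hold it. The M-CAT motif CATTCC, bound by TEAD factors, occurred only in the Tpm1 window, as GGAATG 56 bases before the start, and in 12.6% of all windows. The CArG box of serum response factor, the MEF2 site and the TATA box TATAAA occurred in none of the 5 windows, and in 1.47%, 2.92% and 12.4% of all windows. A match is a description of the letters, and a window without one says nothing of sites elsewhere in the gene.

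Tpm1 encodes the tropomyosin that heart muscle cells use most. On Tpm1 (NM_024427), the wild type arrays ran from 9.07 to 9.31 with a median of 9.11. Mild line hearts read 9.24, 9.30 and 9.22, and the severe line arrays 9.21, 9.30 and 9.16, all within the wild type range. Its log2 fold change was 0.10 for mild line hearts (95% confidence interval -0.05 to 0.25, adjusted p = 0.650) and 0.07 for severe line hearts (-0.08 to 0.21, adjusted p = 0.774). The upper bound in the severe line is a fold change of 1.16. Tpm1 (AK077713) was a dim feature: its wild type arrays ran from 5.71 to 5.96 with a median of 5.88, below the array median, at a raw intensity of 80.1 to 95. Mild line hearts read 5.85, 5.82 and 5.69 and severe line hearts 6.13, 5.90 and 5.95. The arrays of the 2 lines did not overlap on it, with the severe line higher, and neither did those of the 2 groups of littermates, with the littermates of the severe line lower. Neither the difference between the lines (log2 0.20, adjusted p = 0.332) nor that between the littermates (-0.14, adjusted p = 0.598) passed the test. The files hold no detection value by which this dim signal could be told from background.

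Tpm2 encodes β-tropomyosin, a striated form of skeletal muscle that is also made in smooth muscle and in fibroblasts. On Tpm2 (NM_009416) the wild type arrays ran from 7.54 to 7.84 with a median of 7.71 (raw 197 to 291). In mild line hearts it read 8.21, 8.43 and 8.26 (raw 319 to 365), and the severe line arrays read 8.91, 8.67 and 9.24 (raw 417 to 641). All mild arrays lay above all wild type arrays, and all severe arrays lay above all mild arrays. Tpm2 was the 1 tropomyosin feature of 8 whose mild line arrays did not overlap wild type, as was the case for 7.52% of all features. The means were 7.70 ± 0.11 in wild type (SD, n = 6), 8.30 ± 0.12 in mild line hearts (SD, n = 3) and 8.94 ± 0.29 in severe line hearts (SD, n = 3).

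Tpm2 had a log2 fold change of 0.60 in mild line hearts (standard error 0.102, 95% confidence interval 0.39 to 0.81, adjusted p = 0.00118 from limma). Its value in severe line hearts was 1.24 (standard error 0.102, interval 1.03 to 1.46, adjusted p = 4.5e-07). The severe line was higher than the mild line by 0.64, or 1.56-fold (standard error 0.117, adjusted p = 0.00747), so that every step in the order wild type, mild, severe passed the test. Set against own littermates, Tpm2 was higher by 0.53 in mild (adjusted p = 0.0147) and by 1.31 in severe line hearts (adjusted p = 2.49e-06). The difference between these 2 changes was 0.78 (standard error 0.163) and did not pass the test (adjusted p = 0.0606). Severe line replicate 2 had the lowest Tpm2 signal of its group, and without it the difference was 0.91 (adjusted p = 0.00618). The range over 21 alternatives was 0.62 to 0.91, with adjusted p from 0.00618 to 0.324. The call of Tpm2 in mild line hearts ended when the replicate number was taken as a block against own littermates (0.53, adjusted p = 0.0519, the highest of 23 alternatives, whose lowest was 0.000184). The step from mild to severe lost its call with an offset of 16 in the background correction (0.70, adjusted p = 0.0536). Scaling to the median in place of quantiles ended it as well (0.55, adjusted p = 0.0907), over a range of adjusted p from 0.00127 to 0.0907 in 21 alternatives.

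Tpm3 encodes the tropomyosin of slow skeletal fibers and, from other starts and exons, cytoskeletal forms made in most cells. RefSeq also lists 3 pseudogenes named after it, and whether the features share sequence with them was not tested. Its 3 features differed in how they changed. On Tpm3 (AF317223) the wild type arrays ran from 6.82 to 7.03 with a median of 6.92 (raw 141 to 162). The mild line arrays read 7.02, 6.92 and 6.96, within the wild type range, and the severe line arrays read 9.29, 8.97 and 9.29 (raw 504 to 664). The lowest severe array was thus far above the highest array of any other group. The log2 fold change in the severe line was 2.27 (standard error 0.0776, 95% confidence interval 2.11 to 2.44), or 4.84-fold (4.32 to 5.42), with an adjusted p of 1.09e-12 from limma. By the size of the limma statistic it ranked 4 among 30854 features, and by the size of the log2 fold change it ranked 6. For mild line hearts the value was 0.06 (interval -0.10 to 0.22, adjusted p = 0.858), whose upper bound is a fold change of 1.17.

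On Tpm3 (AK050665) the wild type arrays lay close together, from 7.74 to 7.81 with a median of 7.79 (raw 232 to 283). Arrays of the mild line read 7.71, 7.73 and 7.78, and the severe line arrays read 9.34, 9.31 and 9.48 (raw 623 to 756). The severe arrays stood apart from all others, and the mild arrays overlapped wild type. The log2 fold change in the severe line was 1.59 (standard error 0.0618, interval 1.46 to 1.72), or 3.02-fold (2.76 to 3.3), with an adjusted p of 8.16e-12. Mild line hearts had a value of -0.04 (interval -0.17 to 0.09, adjusted p = 0.869). The order of the group means was severe, wild type, mild, and between the last 2 the arrays overlapped and the difference did not pass the test.

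On Tpm3 (NM_022314), to which 4 of the 6 Tpm3 probe IDs belong, the wild type arrays ran from 7.57 to 7.81 with a median of 7.71. Those of the mild line read 7.57, 7.55 and 7.66, around the lower end of the wild type range, and the severe line arrays read 7.98, 7.85 and 7.99, just above it. Severe line hearts had a log2 fold change of 0.24, or 1.18-fold (standard error 0.0719, interval 0.09 to 0.40), and did not pass the test (adjusted p = 0.0792). With no background correction it passed (0.21, adjusted p = 0.0494, where 23 alternatives ran from 0.0494 to 0.542). Its value in mild line hearts was -0.10 (adjusted p = 0.645). The severe line was higher than the mild line by 0.35 (standard error 0.083, adjusted p = 0.0443), a call that ended in 11 of 21 alternatives, among them leaving out any 1 of the severe or mild line arrays, or replicate 2 of the littermates of the mild line (adjusted p 0.0292 to 0.306 over all).

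The direct comparison of the lines gave larger values for the other 2 features. Tpm3 (AF317223) was higher in the severe than in the mild line by 2.22 (standard error 0.0896, adjusted p = 3.82e-11) and Tpm3 (AK050665) by 1.64 (standard error 0.0714, adjusted p = 6.22e-11). With each line set against its own littermates, the changes in the lines still differed by 2.26 (standard error 0.128, adjusted p = 2.12e-08) and 1.65 (standard error 0.102, adjusted p = 5.58e-08). These were the 2 of 8 tropomyosin features that passed this test, against 0.266% of all features. In the severe line, Tpm2 and the 3 Tpm3 features were the 4 of 8 whose arrays did not overlap wild type (7.21% of all features). Between the lines 5 of 8 did not overlap, these 4 and Tpm1 (AK077713), against 18.1% of all features.

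**Figure D2:**
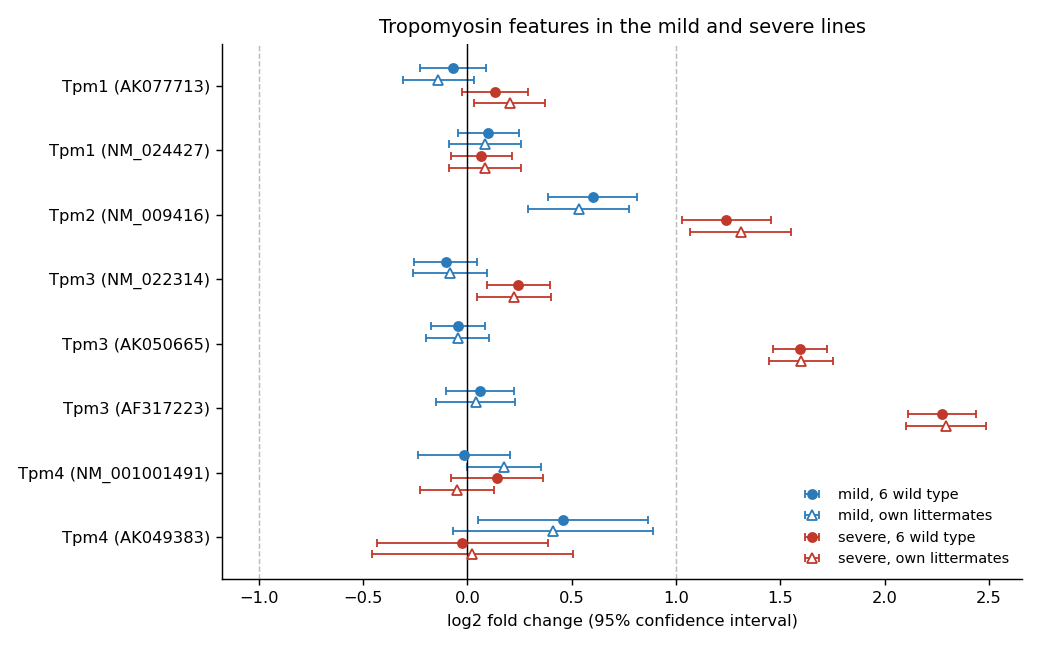
Log2 fold change (horizontal axis) of each tropomyosin feature with its 95% confidence interval from limma. Filled circles set a line against all 6 wild type arrays, open triangles against its own 3 littermates, in blue for the mild and in red for the severe line. Dashed lines mark a fold change of 2 in either direction. Only Tpm2, Tpm3 (AK050665) and Tpm3 (AF317223) pass the right dashed line, all in the severe line, and for these 3 the filled and open symbols nearly coincide.

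Because features of 1 gene can read different isoforms, the change of each was set against that of the feature of the same gene with the highest mean, within each array. Over the 9 arrays of a comparison this exact permutation test has 84 regroupings and a smallest two-sided p of 0.0119, and 8 such tests were made. In the severe line the log2 fold change of Tpm3 (AF317223) was larger than that of Tpm3 (AK050665) by 0.68, and that of Tpm3 (NM_022314) smaller by 1.35 (log2 difference -1.35), each with an exact p of 0.0119 and an adjusted p of 0.0476. The 3 Tpm3 features thus changed unequally in the severe line on the log2 scale. Tpm3 (AF317223) started lower: its raw intensities were 141 to 162 in wild type and 504 to 664 in severe line hearts. Those of Tpm3 (AK050665) were 232 to 283 and 623 to 756. Whether these 2 features differ in their gain of raw intensity was not tested. In mild line hearts the same differences were 0.10 (exact p = 0.107, adjusted p = 0.214) and -0.06 (exact p = 0.357, adjusted p = 0.476). The 2 features of Tpm1 differed in their change by -0.17 in mild line hearts (exact p = 0.0714, adjusted p = 0.190). Their difference in severe line hearts was 0.07 (adjusted p = 0.599 by the exact test). Those of Tpm4 differed by 0.47 (adjusted p = 0.248) and -0.17 (adjusted p = 0.619) by the same test.

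Leaving out any severe line array, any of the littermates of the severe line, or replicate 1 or 2 of the littermates of the mild line ended both Tpm3 calls of unequal change (adjusted p = 0.0716 without a wild type array and 0.143 without a severe line array). In each case the exact p was the smallest that the fewer regroupings allow (0.0179 and 0.0357). These losses thus say nothing of the size of the differences. With own littermates alone the smallest p this permutation test can give is 0.1. The sizes of the 2 differences over 17 alternatives were 0.54 to 0.91 and -1.47 to -1.24, with adjusted p from 0.0476 to 0.400 for each.

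Tpm4 encodes a cytoskeletal tropomyosin found in many cell types. On Tpm4 (NM_001001491) the littermates of the mild line read 10.52, 10.35 and 10.33, and the mild line 10.53, 10.54 and 10.66. The littermates of the severe line read 10.82, 10.82 and 10.71, and the severe line 10.84, 10.76 and 10.60. The 2 groups of wild type littermates did not overlap, and those of the severe line were higher by 0.38 (standard error 0.0833, interval 0.21 to 0.56), which did not pass the test over all features (adjusted p = 0.0984, and 0.0621 to 0.338 over 20 alternatives). Against the 6 wild type hearts, mild line hearts had a log2 fold change of -0.02 (adjusted p = 0.977) and severe line hearts 0.14 (adjusted p = 0.642). Against own littermates it was 0.18 (adjusted p = 0.486) and -0.05 (adjusted p = 0.888), so that the sign in each line turned with the choice of control arrays.

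None of the 8 tropomyosin features passed the test between the 2 groups of littermates, where 0.0875% of all features did. The smallest unadjusted p from limma among the 8 was that of Tpm4 (NM_001001491), 0.000258. The littermates did not overlap on 2 of 8 features, Tpm4 (NM_001001491) and Tpm1 (AK077713), against 15.1% of all features.

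Tpm4 (AK049383) varied more within its groups than any other tropomyosin feature. Its wild type arrays ran from 6.35 to 7.06 with a median of 6.61. Mild line hearts read 7.42, 7.08 and 6.90, and the severe line arrays 7.03, 6.02 and 6.90. The groups overlapped, and the SD was 0.32 in wild type, 0.27 in mild and 0.55 in severe line hearts. The log2 fold change was 0.46 for mild line hearts (standard error 0.194, interval 0.05 to 0.87, adjusted p = 0.312) and -0.02 for severe line hearts (interval -0.43 to 0.38, adjusted p = 0.980). As fold changes these intervals run from 1.04 to 1.82 for mild and from 0.741 to 1.31 for severe line hearts. The interval is not adjusted over features: that of the mild line lies above 1, though the feature did not pass the test.

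The proteins that share the thin filament with tropomyosin were described from a list of 40 genes, of which 37 had a feature with their symbol (Tnnt2, Actg1 and Cnn3 were not read here), each gene read by its feature with the highest mean. Of the 37, 11 passed the test in mild line hearts, 7 higher and 4 lower, and 10 in severe line hearts, 8 higher and 2 lower. Their share was 29.7% and 27% of the list, beside 3.55% and 3.3% of all features. The median log2 fold change of the 37 was 0.05 and 0.02. Fewer passed in the mild line with an offset of 16 (4), median scaling (7), own littermates (5), own littermates with the replicate block (3), and without mild line replicate 2 (5) or 3 (6). Fewer passed in the severe line with median scaling (5), an offset of 16 (7), own littermates with the replicate block (8), own littermates (9), and without severe line replicate 3 (6). Smaller falls in other alternatives are not listed here for either line.

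Of the 7 measured troponin genes, whose products bind tropomyosin and calcium, 1 was higher and 1 lower in each line. Tnnt1, the tropomyosin-binding troponin T of slow skeletal fibers, was higher on the log2 scale by 1.96 in mild and by 4.18 in severe line hearts (adjusted p = 1.32e-08 and 2.12e-13). The severe line exceeded the mild line on it (log2 2.21, adjusted p = 4.8e-08). Tnni1, the inhibitory troponin of slow skeletal fibers, had log2 fold changes of -0.12 and 0.02 (adjusted p = 0.670 and 0.956). Tnni2, the inhibitory troponin of fast skeletal fibers, was lower in both lines (log2 -0.59 and -0.53, adjusted p = 0.0164 and 0.0351). Tnnc1, troponin C of heart and slow muscle, had log2 fold changes of -0.04 and -0.12 (adjusted p = 0.868 and 0.409). Tnni3, the heart form of troponin I, had values of 0.28 and -0.27 (adjusted p = 0.498 and 0.483).

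Of the 5 measured actins, Acta1, the actin of skeletal muscle, was higher in both lines (log2 1.42 and 1.18, adjusted p = 3.6e-09 and 7.08e-08). Acta2, the actin of smooth muscle, was lower in mild line hearts (-0.55, adjusted p = 0.0159) and higher in severe line hearts (0.62, adjusted p = 0.00813). The difference between the lines was 1.17 for Acta2 (adjusted p = 0.000173). Actc1, the main actin of the heart, had values of 0.21 and 0.02 (adjusted p = 0.410 and 0.962).

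Among the 12 genes of the filament ends and the nebulin family, 1 was higher and 2 lower in the mild line, and 1 was higher and 1 lower in the severe line. Tmod4, a tropomodulin of skeletal muscle that caps the pointed end of the filament together with tropomyosin, was lower in both lines (log2 -0.51 and -0.68, adjusted p = 0.00138 and 0.000107). Tmod1, the tropomodulin of heart muscle, was lower in mild line hearts (-0.33, adjusted p = 0.0238) and had a value of -0.13 in severe line hearts (adjusted p = 0.533). Lmod3, a leiomodin that nucleates actin filaments, was higher in the mild line (0.35, adjusted p = 0.0283). Capza1, a subunit of the protein that caps the barbed end, was higher in the severe line (0.31, adjusted p = 0.0332).

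Of 13 other regulators of actin filaments, 4 were higher in each line and none was lower. Cfl2, the muscle cofilin that severs filaments (log2 0.42 and 0.38), Pfn1, a profilin that binds actin monomers (0.41 and 0.32), and Wdr1, which helps cofilin (0.31 and 0.56), passed the test in both lines. Pfn2 passed it in the mild line (0.29, adjusted p = 0.0325). Tagln, a smooth muscle protein that binds actin, passed it in the severe line (0.70, adjusted p = 6.28e-05). The lines differed on Tagln by 0.57 (adjusted p = 0.00493).

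**Figure D3:**
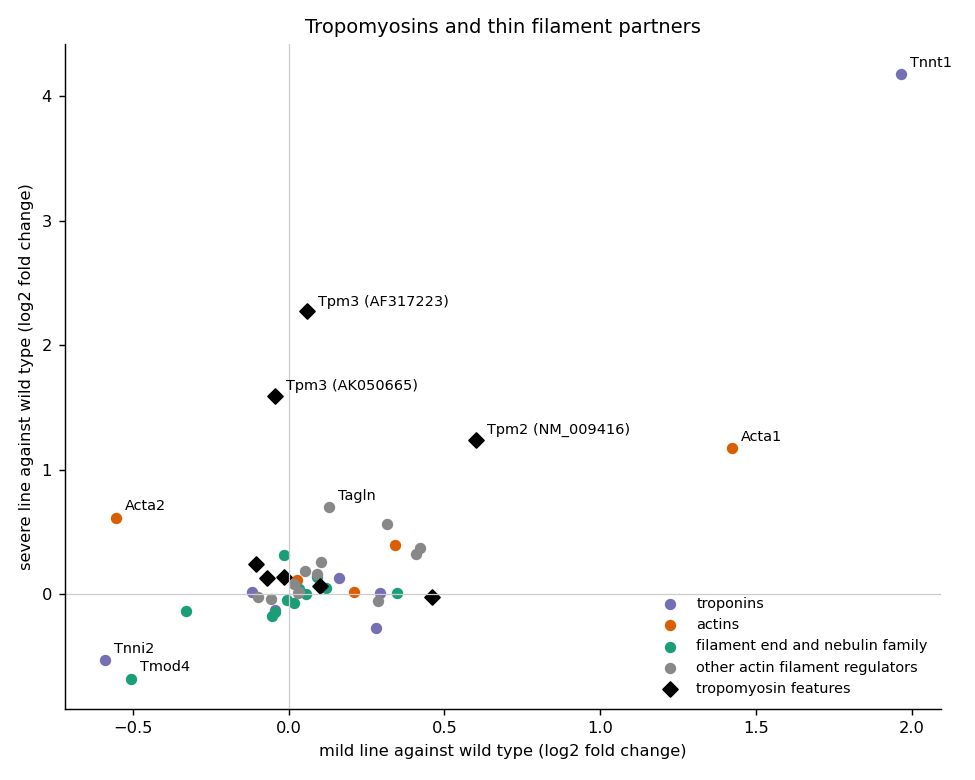
Log2 fold change against 6 wild type arrays in the mild line (horizontal axis) and in the severe line (vertical axis) for the 8 tropomyosin features (diamonds) and 37 thin filament genes (circles, colored by list). Both axes share the same wild type arrays. Tpm3 (AF317223) and Tpm3 (AK050665) lie near 0 on the horizontal axis and high on the vertical one, whereas Tpm2, Tnnt1 and Acta1 lie to the right of 0 and above 0.

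Markers of other tissues and cell types were read from the same fits, in which 3.55% of all features passed the test in the mild and 3.3% in the severe line. Of 17 skeletal muscle markers, 5 of them also in the troponin list, 16 were measured, and 7 of them lay below the array median. Their summed normalized signal was 5890 to 8110 in wild type, 16300 to 19600 in mild and 19100 to 22300 in severe line hearts. Mild line hearts had 5 that passed the test as higher and 2 as lower, and severe line hearts 2 as higher and 1 as lower. The median log2 fold change of the 16 was 0.13 in mild and 0.04 in severe line hearts. Tnnt1 and Myl1, a myosin light chain of fast fibers (log2 1.42 and 0.85), were higher in both lines. Casq1, Mybpc2 and Pvalb passed as higher in the mild line only (log2 1.14, 0.82 and 0.65 there). Lower were Tnni2 in both lines and Atp2a1 in the mild line (-0.35). The sum gives most weight to bright features such as Myl1 (wild type mean 12.27). In severe line hearts it also gives much weight to Tnnt1, which rose there by 4.18 from a wild type mean of 9.06. The myosin heavy chains Myh1 and Myh4 of fast fibers were below the array median in wild type hearts, with log2 fold changes between -0.09 and 0.01 in both lines. Myl6b, a myosin light chain of slow fibers, had values of 0.15 and 0.06 (adjusted p = 0.479 and 0.844). The 8 smooth muscle markers had a summed signal of 7020 to 9600 in wild type, 6200 to 6420 in mild and 10500 to 13200 in severe line hearts. This sum gives most weight to Acta2 (wild type mean 12.58). Acta2 was lower in the mild line (-0.55) and, as was Tagln, higher in the severe line. Myh11, Cnn1, Smtn, Lmod1, Mylk and Actg2 had log2 fold changes between -0.07 and 0.11 in the severe line. Of 6 atrial markers 4 were lower in the mild line, namely Sln (-1.845), Myl7 (-1.843), Dkk3 (-1.078) and Myl4 (-0.714). The summed signal of the atrial markers was 34000 to 41800 in wild type, 17600 to 23100 in mild and 33000 to 35800 in severe line hearts. Of 8 fibroblast markers, Col1a1 passed the test, higher in the severe line (0.48, adjusted p = 0.0114), with a summed signal of 8880 to 10700 in wild type, 9810 to 13100 in mild and 10800 to 11400 in severe line hearts. Mrc1 was the 1 of 7 measured macrophage markers to pass, lower in the mild line (-0.32, adjusted p = 0.0492), and Ppbp the 1 of 7 measured platelet markers, higher in the mild line (0.47, adjusted p = 0.0355). None of 8 endothelial markers and none of 4 measured red blood cell markers passed it in either line. The part of these cell types in the Tpm2 and Tpm3 values was not tested.

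Features whose profile over the 12 arrays was most like that of a changed tropomyosin feature were found by the root mean square difference of the log2 values, each taken relative to its own mean in the 6 wild type arrays. Closest to Tpm2 were Eno2, an enolase of neurons and other tissues (difference 0.13, log2 fold changes 0.71 and 1.33 in the mild and severe line), and Uchl1, a ubiquitin hydrolase (0.16, with 0.59 and 1.08). The next were 2900055J20Rik (0.18), Tmem132a (0.18) and 4833412C05Rik (0.21). All 5 passed the test in both lines, which is no separate result, because they were chosen from these arrays for a profile near that of Tpm2.

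Closest to Tpm3 (AK050665) were Kif1a, a kinesin motor that moves vesicles along microtubules (difference 0.16, log2 fold changes 0.12 and 1.48), Ildr2 (0.18, with 0.23 and 1.47), Sypl2, a membrane protein of the triads of skeletal muscle (0.19, with 0.13 and 1.65), P3h2 (0.26) and AW551984 (0.27). Of these P3h2 passed the test in mild line hearts (log2 0.45, adjusted p = 0.00078), and the other 4 did not. Tpm3 (AF317223) had no profile as near to it: the closest were Sypl2 (0.35), AW551984 (0.35), Rab15 (0.41), Ildr2 (0.42) and Kif1a (0.42), whose severe line log2 fold changes ran from 1.47 to 1.73, below the 2.27 of Tpm3 (AF317223). These likenesses rest on 12 arrays in which the severe line differs from the rest, and every feature with that contrast enters the ranking.

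**Figure D4:**
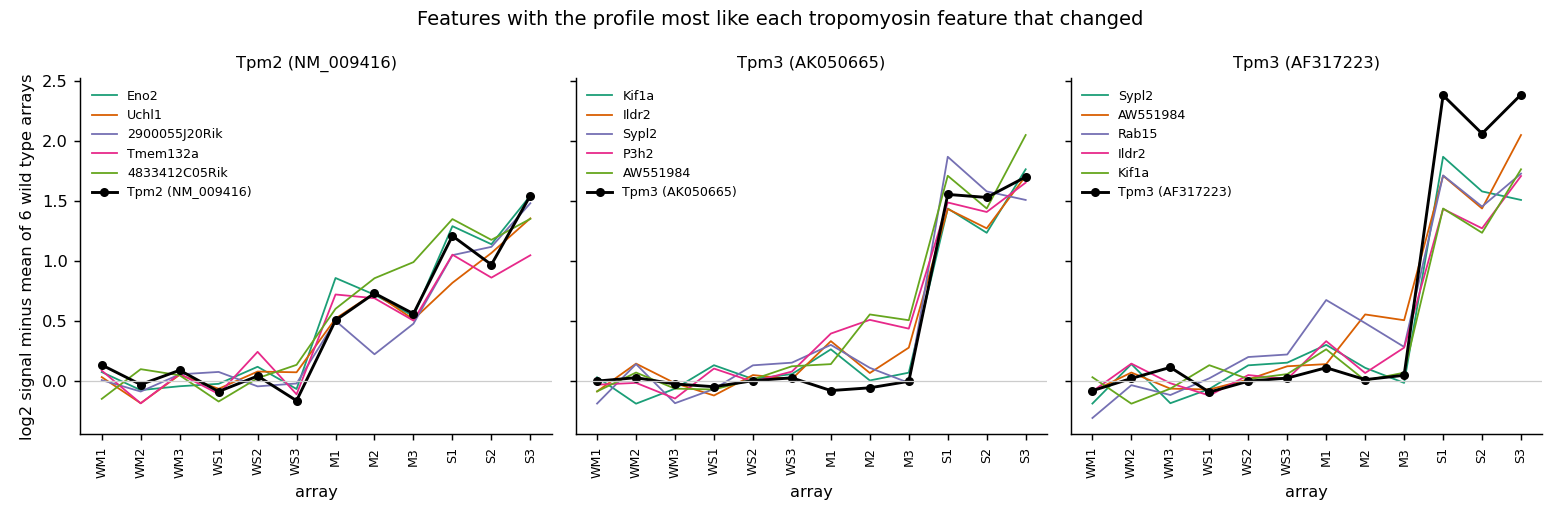
Log2 signal minus the mean of the 6 wild type arrays (vertical axis) on each array (horizontal axis: WM and WS are wild type littermates of the mild and severe line, M and S the transgenic lines, numbered by replicate, which have no order) for the 3 tropomyosin features that changed (black) and the 5 features most like each (colored). Tpm2 steps up in the mild and again in the severe line, and both Tpm3 features stay near 0 until the severe line arrays.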

How the data were processed

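RNA of 12 hearts, 1 per array, was labeled and hybridized by the authors. In the deposited raw files each probe has 1 summary intensity over its beads. A further table deposited by the authors is on the log2 scale, background corrected and quantile normalized. Per the labels, GenomeStudio and limma were used, without versions. Background subtraction on export is not given in the sources used here. Genes were named from the platform annotation: 34885 probe IDs have 1 symbol, 18 several and 10378 none. Without an ID, 6 lines of 3 arrays were dropped.

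IDs with the same 12 values were merged. Intensities were corrected by normexp with an offset of 50, quantile normalized and log2 transformed, and group means were fitted in limma 3.58.1 (R 4.3.3) with Benjamini-Hochberg adjustment over 30854 features. The offset makes fold changes of dim features smaller than those of the RNA. Precision is limited by the number of arrays. The fit was tested on simulated data. The rule of the study asks for a fold change of at least 2 and either an adjusted p under 0.05 or an unadjusted p under 0.001.

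The members, gene lists and tests were chosen with earlier results of these data known. Named were all tropomyosin features, at most 4 passing genes per thin filament list and line, the markers that passed the test, and some markers that did not. The 5 features with 1 symbol most like each changed feature were named as well. The heart forms Tnnc1, Tnni3 and Actc1 and the slow fiber genes Tnni1 and Myl6b were added after their values were seen. Alternatives covered background correction, scaling, the authors' table, a signal filter, the variance model, array weights, control arrays, the replicate number as a block and each array left out.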

Additional observations from a re-analysis of the deposited data

Results flagged for a closer look

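Both Tpm3 features that rose in the severe line differed between the lines by a test of the difference itself, with each line set against its own littermates in limma. The change of Tpm3 (AF317223) was larger in the severe line by 2.26 on the log2 scale (standard error 0.128, adjusted p = 2.12e-08), and all 3 severe line arrays were above all 9 others. The change of Tpm3 (AK050665) was larger by 1.65 (standard error 0.102, adjusted p = 5.58e-08), again with all 3 severe line arrays above the rest.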

How the results depend on the processing

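The severe line calls of Tpm2, Tpm3 (AK050665) and Tpm3 (AF317223) kept their direction and passed the test in all 23 alternatives, with log2 fold changes of 1.09 to 1.40, 1.45 to 1.76 and 1.99 to 2.67. The count of tropomyosin features passing in the mild line fell from 1 to 0 with the replicate block and own littermates (Tpm2 0.53, adjusted p = 0.0519, where 23 alternatives ran from 0.000184 to 0.0519). Deviations of same-numbered arrays had correlations of 0.0561, -0.00401 and -0.0322 for mild hearts and -0.0955, -0.244 and 0.00245 for severe ones. Whether the numbers pair the hearts is not given in the sources, and these few correlations cannot decide it. Between the lines the count fell from 4 to 2 with an offset of 16 and to 2 with median scaling. It was 3 with another variance model and 3 with only the 2 groups compared. The call of Tpm3 (NM_022314) between the lines ended in 11 of 21 alternatives. Feature pairs with unequal change fell from 2 to 0 with own littermates and ran from 0 to 3 when 1 array was left out, where fewer regroupings raise the smallest p (the extra pair, Tpm3 (AF317223) in the mild line, passed without replicate 3 of the littermates of the mild line, adjusted p = 0.0477, in a range of 0.0477 to 0.640). Thin filament genes passing in the mild line fell from 11 to 4 with an offset of 16, 7 with median scaling, 5 with own littermates and 3 with the replicate block, and ran from 5 to 12 with 1 array left out. In the severe line they fell from 10 to 5 with median scaling, 7 with an offset of 16, 9 with own littermates and 8 with the replicate block. They ran from 6 to 10 there with 1 array left out. The thin filament alternatives, other than reading every feature of the listed genes, were chosen after seeing the data. No value that passed the test reversed. The signal filter dropped Tpm1 (AK077713). The causes of these changes were not tested.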
